A study of Homo sapiens with 36 samples.

Results

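JunB binding was compared between A549, a cell line from a human lung adenocarcinoma, and BEAS-2B (B2B), an immortalised line of non-cancerous human bronchial epithelial cells. JunB was immunoprecipitated from crosslinked chromatin of each line and the DNA sequenced (ChIP-seq), with 2 replicates for each line and the same antibody in all 4 samples. The labels give no drug for them. The authors merged the 2 replicates before calling peaks, so that JunB in each line is a single list, without replicate error and with no test across samples. The 2 JunB lists held 36631 of the 475211 peaks in the 16 lists of the series, 28068 for A549 and 8563 for B2B. The count covers chromosomes 1 to 22 with X and Y, in hg38 coordinates. Peaks in stretches of 1 Mb without an annotated start site were set aside, which left 26217 peaks in A549 and 8363 in B2B. Peaks of the 2 lists that overlapped by at least 1 bp were merged. This gave 29374 regions, of which 21142 were called in A549 only, 5068 in both lines (shared) and 3164 in B2B only. Each line stands for 1 donor, and the lines also differ in the part of the lung they came from, so that tumour, tissue and donor cannot be told apart.

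JunB is a Jun-family subunit of the transcription factor AP-1. It pairs with a Fos-family or ATF-family protein through a leucine zipper, and the dimer reads a short, nearly palindromic element, the TPA-response element, written here as the AP-1 motif TGAGTCA. AP-1 is induced by growth factor, stress and cytokine signalling and is known for its part in proliferation, wound repair, matrix turnover and inflammation of epithelia. In many cell types it sits at enhancers far from genes as well as at promoters.

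The labels of the lines were set against H3K4me3, a histone mark of active promoters. Of 5 epithelial genes, EPCAM, CDH1, KRT8 and KRT18 carried an H3K4me3 peak within 1 kb of a start site in both lines, and KRT19 carried none in either. All 4 mesenchymal genes, VIM, FN1, CDH2 and ZEB1, carried one in both lines. Of 3 alveolar genes, A549 had NKX2-1 and SFTPC, and B2B had NKX2-1. Of 2 basal airway genes, A549 had TP63, whereas B2B had neither TP63 nor KRT5, which are defining markers of basal bronchial cells. Of a longer list of 12 basal airway genes, 8 carried H3K4me3 in A549 and 4 in B2B, where KRT17, ITGA6, ITGB4 and LAMA3 did, KRT17 in B2B alone.

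Sequences are shown for some of the 5 strongest sites of each class, chosen because they hold the AP-1 motif. Of the 5 strongest sites, 1 A549-only, 1 shared and 2 B2B-only sites held no copy within 50 bp of the summit and are not shown, and the strongest A549-only and the strongest shared site were among them. Each line gives the 101 bases centred on a JunB summit, on the plus strand of hg38, with each AP-1 motif in capitals. A start in a label is any annotated transcript start of the gene, also one inside it. The first 3 were called in A549 only, the next 3 in both lines (A549 summit) and the last 2 in B2B only.
A549-only, intron of TCF7L2, chr10:113093618-113093718: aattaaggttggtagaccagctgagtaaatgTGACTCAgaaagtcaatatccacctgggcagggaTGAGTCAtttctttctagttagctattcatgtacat
A549-only, start of BIN1, chr2:127064841-127064941: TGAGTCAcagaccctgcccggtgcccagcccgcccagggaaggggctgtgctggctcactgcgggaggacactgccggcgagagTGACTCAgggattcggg
A549-only, start of GPAT3, chr4:83536157-83536257: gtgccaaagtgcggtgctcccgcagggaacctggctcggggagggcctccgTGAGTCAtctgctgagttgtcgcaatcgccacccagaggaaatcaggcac
Shared, intron of LDLRAD3, chr11:36149835-36149935: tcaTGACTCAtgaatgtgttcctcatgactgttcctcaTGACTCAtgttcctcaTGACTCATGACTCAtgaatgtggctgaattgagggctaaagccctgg
Shared, intron of PCCA, chr13:100392874-100392974: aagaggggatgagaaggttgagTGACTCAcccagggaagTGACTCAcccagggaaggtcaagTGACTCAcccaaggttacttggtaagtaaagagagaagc
Shared, intron nearest to ACTBL2, chr5:57693224-57693324: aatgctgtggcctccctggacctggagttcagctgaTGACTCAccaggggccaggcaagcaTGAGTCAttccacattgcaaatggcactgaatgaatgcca
B2B-only, nearest to SLITRK6, chr13:85497780-85497880: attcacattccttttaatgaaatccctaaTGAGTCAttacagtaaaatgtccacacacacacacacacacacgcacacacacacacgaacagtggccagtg
B2B-only, nearest to VGLL2, chr6:117167858-117167958: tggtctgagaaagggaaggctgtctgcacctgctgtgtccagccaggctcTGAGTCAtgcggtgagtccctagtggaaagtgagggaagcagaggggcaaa
The shared sites at LDLRAD3, PCCA and ACTBL2 held 4, 3 and 2 copies of the motif. Of the B2B-only sites, that near SLITRK6 held 1 AP-1 copy and, beside it, the TEAD motif GGAATGT on one of the strands. The site near VGLL2, a cofactor of TEAD proteins, held 1 AP-1 copy and no TEAD motif in this window.

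In the full lists most JunB sites called in B2B were also called in A549, and most of those called in A549 were not called in B2B. With the A549 list cut to the length of the B2B list, most sites of each list had no match in the other. Of the B2B peaks, 62.2% overlapped an A549 JunB peak (95% interval 61.1 to 63.2%), and of the A549 peaks 19.4% overlapped a B2B JunB peak (18.9 to 19.8%). Of the merged regions, 17.3% were shared (16.8 to 17.7%). The intervals given here and below are Wilson intervals for shares and Newcombe intervals for differences. They cover counting error only. With the A549 list cut to the length of the B2B list by −log10 p, 5191 regions were A549-only, 3171 were shared and 5073 were B2B-only, and the shared part was 23.6% (22.9 to 24.3%). Shared regions were then fewer than those of either list alone. The B2B-only regions of this setting include sites whose A549 peak was called but cut.

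Shared regions were the stronger ones in each list. Fold enrichment, which the caller gives as summit pileup over its estimate of local background, had a median of 11.4 at shared and 6.46 at A549-only regions in the A549 list. In the B2B list it had a median of 7.13 at shared and 6.11 at B2B-only regions. The pileup solved from these values had a median of 43 reads at shared and 23 reads at A549-only regions in A549, and of 30 reads at shared and 20 reads at B2B-only regions in B2B. Library sizes are not given in the sources used here, so that levels are not compared between the lines. Median widths were 274 bp for A549-only, 367 bp for shared and 213 bp for B2B-only regions.

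When A549 regions were divided into 10 equal bins by fold enrichment, 4.88% of the weakest bin (4.12 to 5.78%) and 55.5% of the strongest bin (53.6 to 57.4%) were also called in B2B. The AP-1 motif within 50 bp of the summit was present in 20.3% of the weakest and 80.0% of the strongest A549 bin. Over the same range the share within 1 kb of a start site went from 48.0% to 21.5%. In B2B the weakest bin was found in A549 in 65.1% of cases (61.7 to 68.2%), bin 3 in 45.9% (42.6 to 49.4%) and the strongest in 84.7% (82.1 to 87.0%). The weakest B2B bin also had the highest share within 1 kb of a start site among the 10 B2B bins, 24.5%, against 8.37% in the strongest.

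**Figure D1:**
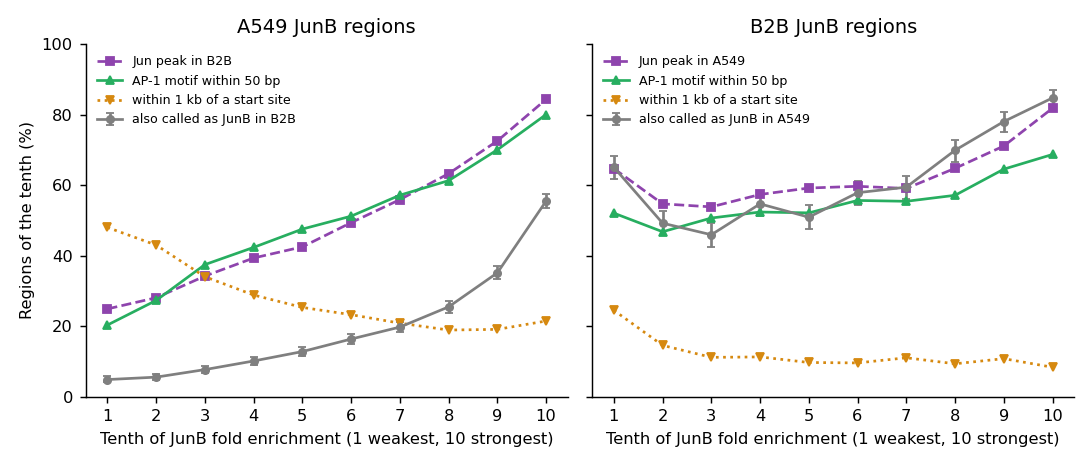
Regions of the A549 list (left) and of the B2B list (right) in 10 equal bins of JunB fold enrichment within the list (horizontal axis, weakest first), with the percentage also called as JunB in the other line (grey, bars are Wilson 95% intervals), with a Jun peak in the other line, with the AP-1 motif within 50 bp of the summit and within 1 kb of a start site. In A549 the share also called in B2B runs from 4.88% to 55.5%, and in B2B the lowest share, 45.9%, is that of bin 3.

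At the 5068 shared regions the summits of both lines were compared. The overlap of peaks that defines these regions already limits how far apart they can lie. The summits of the 2 lists lay a median of 20 bp apart, and 83.6% of them within 50 bp. The fold enrichments of the lists had a Spearman correlation of 0.143 across these regions, which share base composition and mappability and are not independent replicates. Among shared regions, 68 held more than 1 B2B peak and 7 held more than 1 A549 peak.

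A549-only JunB regions lay at promoters far more often than B2B-only regions. The summit was within 1 kb of a start site in 31.8% of A549-only regions (31.2 to 32.4%), 13.6% of shared regions (12.7 to 14.6%) and 9.51% of B2B-only regions (8.54 to 10.6%). A549-only exceeded B2B-only by 22.3 percentage points (21.1 to 23.5), and by 14.1 points (12.6 to 15.5) with lists of equal length. The median distance to a start site was 4.63 kb for A549-only, 9.34 kb for shared and 11.3 kb for B2B-only regions. With A549 regions divided into 3 equal groups by fold enrichment, 42.7% of the weakest, 26.3% of the middle and 23.1% of the strongest A549-only regions lay within 1 kb, against 11.4%, 11.6% and 14.8% of the shared regions. In each of the 3 groups the A549-only share was the higher.

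Away from start sites, introns held 39.4% of A549-only (38.8 to 40.1%), 52.5% of shared (51.2 to 53.9%) and 56.8% of B2B-only regions (55.0 to 58.5%). Exons held 2.92%, 3.18% and 4.30%. Regions between genes made up 25.8%, 30.7% and 29.4%.

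**Figure D2:**
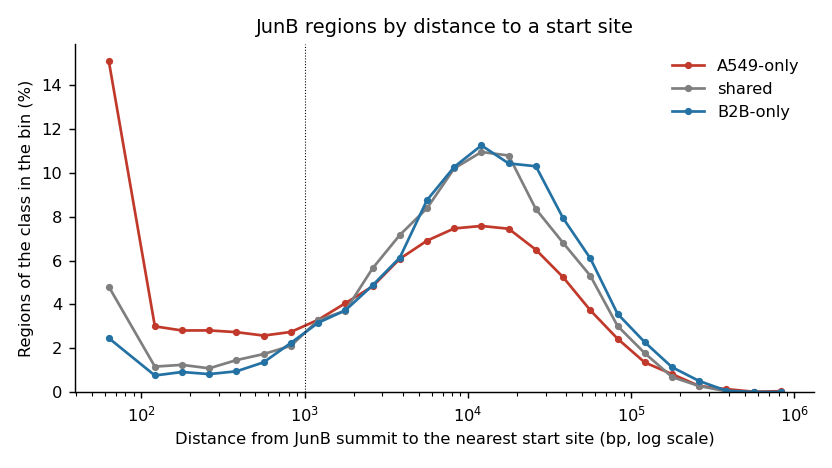
Percentage of the regions of each class (vertical axis) by distance from the JunB summit to the nearest annotated start site (horizontal axis, log scale, the first point holds all regions within 100 bp, the dotted line marks 1 kb). The A549-only curve has its peak in the first bin, and the shared and B2B-only curves have theirs near 10 kb.

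JunB was next compared with its relatives Jun and JunD in the same line. Jun (c-Jun) is the more potent activator of the family, and JunD is the member found in resting cells. Of the A549-only regions, 74.6% overlapped an A549 Jun peak (74.0 to 75.1%), against 88.1% of shared regions (87.1 to 88.9%). The difference was -13.5 percentage points (-14.6 to -12.4), and it was -0.370 points (-1.09 to 0.392) with lists of equal length, where counting error spans 0. Of the B2B-only regions, 89.5% overlapped a B2B Jun peak (88.4 to 90.6%), against 94.2% of shared regions (93.5 to 94.8%), a difference of -4.62 points (-5.89 to -3.40). It was -9.50 points with lists of equal length and -0.780 points (-1.91 to 0.359) when 50% reciprocal overlap was required.

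Over all regions the classes differed more in JunD than in Jun, with JunD at -17.1 points for A549-only minus shared in A549 and -22.2 points for B2B-only minus shared in B2B. Within 1 kb of a start site in A549 the order was the reverse, with -22.3 points for Jun and -15.9 points for JunD. In A549 it was present at 23.6% of A549-only regions and 40.7% of shared regions (39.3 to 42.0%). In B2B it was present at 39.6% of B2B-only regions (37.9 to 41.3%) and 61.8% of shared regions (60.5 to 63.1%). All 3 Jun-family proteins were called at 21.8% of A549-only and 39.1% of B2B-only regions, each in its own line. JunB without Jun and JunD made up 23.7% of A549-only regions (23.1 to 24.3%) and 9.96% of B2B-only regions (8.96 to 11.1%). In windows of the same width 10 kb to each side, Jun peaks of the own line were found at 2.42% of A549-only and 2.59% of B2B-only positions.

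Some regions where JunB was not called in a line had a Jun peak there. Of the A549-only regions, 38.7% overlapped a B2B Jun peak (38.1 to 39.4%), and the share was 58.5% with lists of equal length. Of the B2B-only regions, 21.8% overlapped an A549 Jun peak (20.4 to 23.3%). This share was 40.9% with lists of equal length and 42.0% with 50% reciprocal overlap. In these settings B2B-only regions include sites with an A549 JunB peak, either cut from the list or overlapping by less than 50%. Those values are therefore not shares of sites without an A549 JunB call. Further than 1 kb from a start site, 39.3% of A549-only regions had a Jun peak in both lines, 36.4% in A549 alone and 18.7% in neither. Of the B2B-only regions there, 20.8% had a Jun peak in both lines, 68.4% in B2B alone and 10.7% in neither. The Jun peaks concerned differed in rank within their list. B2B Jun peaks at A549-only regions had a median percentile of 50.3 by fold enrichment, and those at B2B-only regions one of 86.7. A549 Jun peaks had a median percentile of 62.5 at A549-only and 42.2 at B2B-only regions. The JunD lists are shorter, with 18236 peaks over both lines against 80649 for Jun, and 3.98% of A549-only regions held a B2B JunD peak, and 0.442% of B2B-only regions held an A549 JunD peak.

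The marks of promoters and enhancers were examined on chromosomes 1 to 12 for pol II, Med1 and H3K27ac, because some of those lists hold no peaks on later chromosomes, and on all chromosomes for H3K4me3. RNA polymerase II (pol II) and H3K4me3 mark active promoters, and the Mediator subunit Med1 and H3K27ac mark active enhancers and promoters. Within 1 kb of a start site, 86.6% of A549-only regions overlapped pol II in A549, 82.1% H3K4me3, 81.3% H3K27ac and 74.5% Med1. Shared regions there overlapped them in 71.3%, 50.9%, 52.2% and 53.0% of cases. Near start sites, B2B-only regions overlapped the B2B peaks of pol II in 51.8%, H3K4me3 in 19.9%, H3K27ac in 23.7% and Med1 in 36.2% of cases. The same B2B marks lay at 62.1%, 34.9%, 47.6% and 57.9% of shared regions near start sites.

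Away from start sites the order of A549-only and shared regions turned round. H3K27ac of A549 lay at 38.4% of all A549-only and 27.2% of all shared regions, a difference of 11.2 points (9.52 to 12.8). Among regions further than 1 kb from a start site it lay at 19.4% and 23.5%, a difference of -4.10 points (-5.79 to -2.47). With lists of equal length the difference over all regions was 1.09 points (-1.49 to 3.65). Med1 lay at 20.8% of A549-only and 30.2% of shared distal regions in A549, and pol II at 35.6% and 45.4%. In B2B, H3K27ac lay at 12.8% of B2B-only and 23.9% of shared regions, a difference of -11.1 points (-13.1 to -9.19), and of -8.76 points (-10.7 to -6.78) among distal regions. It was -17.8 points with lists of equal length and -1.74 points (-3.67 to 0.190) with 50% reciprocal overlap. Of the distal regions, 55.0% of the A549-only (54.0 to 56.0%) and 56.1% of the B2B-only regions (54.0 to 58.2%) overlapped none of the 4 marks in their own line.

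**Figure D3:**
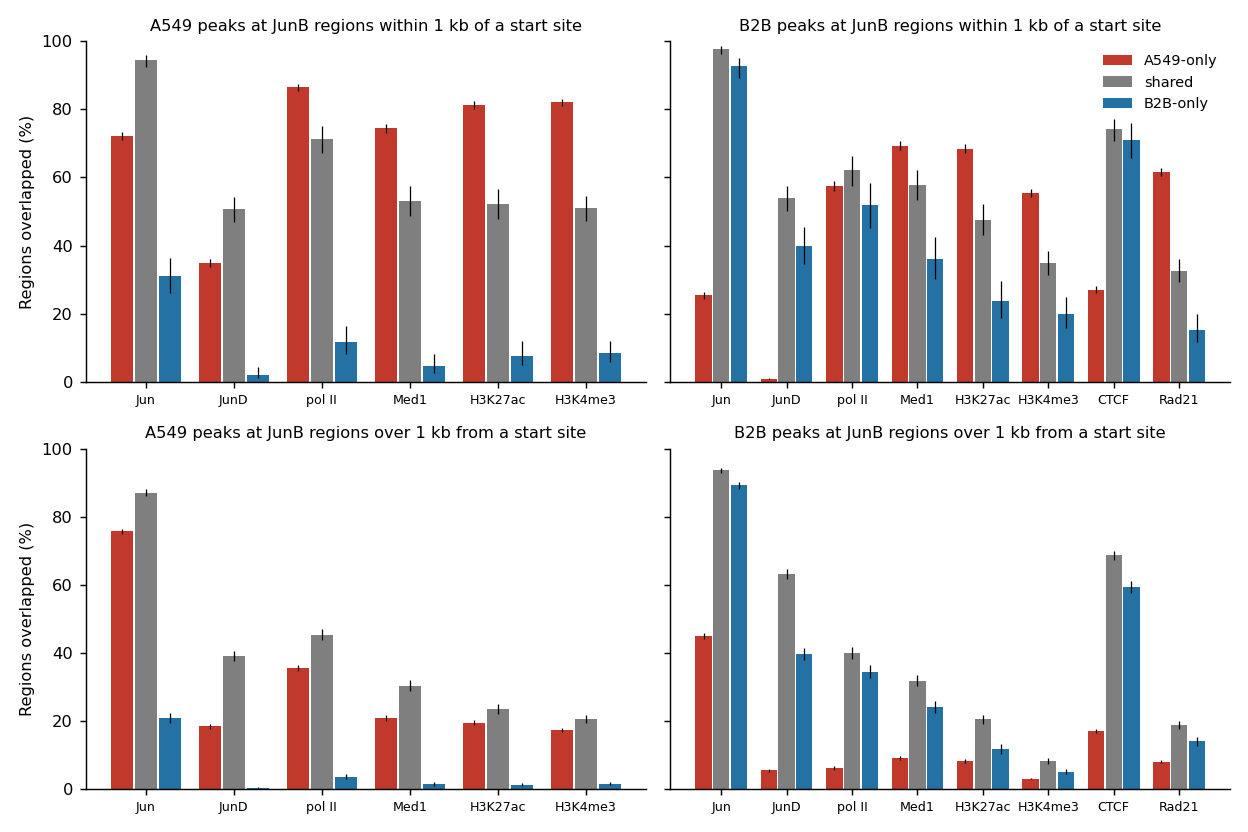
Percentage of JunB regions of each class (vertical axes, bars with Wilson 95% intervals) that overlapped peaks of each target in A549 (left) and B2B (right), within 1 kb of a start site (top) and further away (bottom). Pol II, Med1 and H3K27ac were taken from chromosomes 1 to 12, and at distal B2B-only regions the A549 targets range from 0.279% (JunD) to 20.9% (Jun).

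Many promoters with JunB in A549 only carried active marks in both lines. Of 4447 A549-only regions within 1 kb of a start site, 68.2% overlapped H3K27ac in both lines, 13.1% in A549 alone and 0.270% in B2B alone. For pol II at these regions the shares were 57.0% in both lines and 29.6% in A549 alone. Distal A549-only regions went less often with marks in both lines, since 7.68% carried H3K27ac in both and 11.7% in A549 alone. Of the distal B2B-only regions, 0.845% carried H3K27ac in both lines, 10.8% in B2B alone and 0.282% in A549 alone. Seen by gene, 11959 of 20033 protein-coding genes had H3K4me3 at a start site in both lines. Of those, 4307 had a JunB peak within 1 kb of a start in A549 alone, 434 in both lines and 79 in B2B alone. Among the 2470 genes with H3K4me3 in A549 alone, 337 had JunB in A549 alone, 41 in both and 3 in B2B alone. Among the 364 genes with H3K4me3 in B2B alone, the numbers were 3, 6 and 11.

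In B2B the insulator protein CTCF and the cohesin subunit Rad21 were also profiled. Shared and B2B-only JunB regions overlapped CTCF peaks more often than Rad21 peaks. A549-only regions did so further than 1 kb from a start site, but not near one or over all regions. CTCF lay at 69.4% of shared (68.1 to 70.6%) and 60.5% of B2B-only regions (58.8 to 62.2%), and at 20.2% of A549-only regions (19.7 to 20.7%). Rad21 lay at 20.6% of shared (19.6 to 21.8%) and 14.1% of B2B-only regions (12.9 to 15.3%), and at 25.1% of A549-only regions (24.5 to 25.6%). Within 1 kb of a start site, A549-only regions overlapped Rad21 in 61.6% and CTCF in 26.95% of cases. Further away they overlapped Rad21 in 8.01% and CTCF in 17.03% of cases. Windows 10 kb away held CTCF at 3.78% of shared and 2.61% of B2B-only positions. Over the kept B2B lists, CTCF overlapped 64.8% of JunB, 56.5% of JunD and 33.0% of Jun peaks. The values given next were chosen after the overlap with CTCF was seen. Of 61205 B2B CTCF peaks, 5447 overlapped a B2B JunB peak. Within 50 bp of the CTCF summit, 30.7% of these 5447 held the AP-1 motif (29.5 to 31.9%), against 3.05% of the other 55758 (2.91 to 3.20%). The letters CCANNAGNG, part of the element that CTCF reads, were found at 9.16% of the CTCF peaks with JunB (8.42 to 9.96%) and 23.5% of those without (23.2 to 23.9%). Windows 2 kb away held these letters at 4.54% and 4.66% of positions. Rad21 overlapped 23.8% of the CTCF peaks with JunB and 37.6% of those without. The AP-1 motif was present at 67.8% of shared JunB regions with CTCF and at 67.5% of those without. In B2B-only regions it was present at 38.2% with CTCF (36.0 to 40.4%) and 43.4% without (40.7 to 46.2%), and in A549-only regions at 31.2% and 48.6%. These values are overlaps of called peaks. The reads were not examined, and what the overlap of JunB with CTCF reflects was not tested.

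The sequences under the summits differed between the classes. The AP-1 motif TGAGTCA, on either strand within 50 bp of the summit, was present in 45.1% of A549-only regions (44.4 to 45.8%) and 67.7% of shared regions at the A549 summit (66.4 to 69.0%). The difference was -22.6 points (-24.1 to -21.2), -12.2 points among regions further than 1 kb from a start site and -11.7 points with lists of equal length. It was present in 40.2% of B2B-only regions (38.5 to 42.0%) and 65.1% of shared regions at the B2B summit (63.8 to 66.4%), a difference of -24.9 points (-27.0 to -22.7). Equally wide windows placed 2 kb away held the motif in 1.69% of A549-only and 1.60% of B2B-only cases. Within 100 bp, 13.9% of shared regions held 2 or more copies at the A549 summit, against 5.26% of A549-only regions, and 3.29% of B2B-only regions did at their own.

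Regions near start sites fell into different kinds. Among A549-only regions within 1 kb, 24.3% held the AP-1 motif (23.3 to 25.3%), whereas 72.6% of the shared regions there did (69.2 to 75.8%) and 44.2% of the B2B-only regions (38.7 to 49.8%). Within 100 bp, 46.1% of those A549-only promoter regions held the SP/KLF motif GGGCGG (44.9 to 47.2%), a GC-box common in CpG-rich promoters, against 14.0% of shared (11.7 to 16.8%) and 5.65% of B2B-only promoter regions (3.56 to 8.86%). The cAMP-response element TGACGTCA, read by ATF and CREB proteins, was found at 5.38% of the A549-only promoter regions (4.87 to 5.95%) and the ETS motif CCGGAAG at 8.17% (7.54 to 8.85%). Windows 2 kb away held them in 0.112% and 0.818% of cases. Over all A549-only regions, near or far, the AP-1 motif was present in 48.8% of those with Jun and 34.3% of those without. Within 1 kb of a start site the A549-only values were 28.6% and 13.2%. Over all B2B-only regions the same comparison gave 44.4% with Jun and 4.23% without (2.54 to 6.97%, 14 of 331 regions). Within 1 kb it gave 47.3% with Jun and 4.545% without (1 of 22 regions).

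Further than 1 kb from a start site, the motifs beside AP-1 were set side by side, within 100 bp of the summit and on both strands. The AP-1 motif itself was present in 61.5% of A549-only and 48.0% of B2B-only regions. The TEAD motif GGAATGT, read by the partners of YAP, was found in 4.88% of A549-only and 11.8% of B2B-only regions, a difference of -6.92 points (-8.20 to -5.74). The RUNX motif TGTGGTT followed at 3.65% and 9.29%, a difference of -5.64 points (-6.80 to -4.58), and the NFI half-site TTGGCA at 13.1% and 17.6%. Shared regions lay between the lines for TEAD and RUNX, with 8.86% and 5.32% at the A549 summit. In windows 2 kb away, TEAD was at 3.02% of A549-only and 3.06% of B2B-only positions, and RUNX at 3.57% and 3.77%.

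Other motifs were more frequent in A549-only distal regions. The motif TGTTTAC of the FOXA factors, which open chromatin in lung and gut endoderm, was found in 7.25% of A549-only and 2.69% of B2B-only regions, a difference of 4.56 points (3.78 to 5.25), beside 2.85% and 3.004% in windows 2 kb away. The HNF4 motif CAAAGTCCA was found in 1.35% and 0.105%, a difference of 1.24 points (0.972 to 1.45), and the CEBP motif TTGCNNAA in 15.5% and 11.8%. The antioxidant response element TGACNNNGC, which can overlap an AP-1 copy followed by GC, was found in 15.2% of A549-only and 11.3% of B2B-only regions. The E-box CAGGTG, read by ZEB and SNAI repressors, was found in 16.5% and 10.1%, and windows 2 kb away held it in 17.4% and 16.01%. For NFY (CCAAT) and ETS the intervals of the difference spanned 0, from -2.90 to 0.521 and from -0.429 to 0.348 points. The motif AGATAAG of the GATA factors differed by 0.794 points (0.0989 to 1.39), SP/KLF by 1.97 points (1.08 to 2.77) and the cAMP-response element by 0.491 points (0.215 to 0.679).

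**Figure D4:**
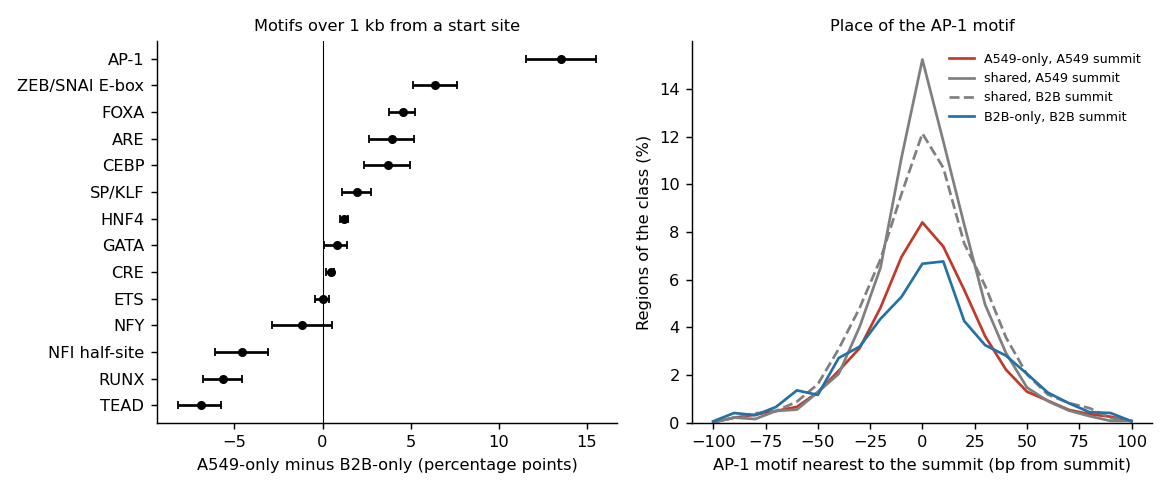
Left, difference between A549-only and B2B-only JunB regions in the percentage with each of 14 motifs within 100 bp of the summit, for regions further than 1 kb from a start site, with Newcombe 95% intervals. Right, percentage of the regions of each class (vertical axis) by place of the AP-1 motif nearest to the summit (horizontal axis, bp), where the median distance of the motif is 17 bp at A549-only and 21 bp at B2B-only regions.

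JunB regions were then assigned to the protein-coding gene with the nearest start, where every annotated transcript start of a gene counts, also one inside the gene. A549-only regions were nearest to 8642 of 20033 genes (43.1%), shared regions to 3146 genes (15.7%) and B2B-only regions to 2128 genes (10.6%). The ratio of genes for A549-only over B2B-only regions was 4.06, and 1.128 with lists of equal length. A JunB peak within 1 kb of a start was found at 5269 genes in A549 (26.3%) and 605 genes in B2B (3.02%). Among the 11959 genes with H3K4me3 in both lines, these shares were 39.6% and 4.29%. These percentages are the background for the gene lists below. Over all 20033 genes, 8073 had more A549-only than B2B-only regions, 847 had fewer and 10058 had no region. Among genes with a region, more A549-only ones was thus the usual order, so that this order in a list is not particular to it. Genes with wide surroundings collect more regions, so the counts are read as a description of where JunB lay.

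Genes of AP-1 itself carried JunB widely in A549. All 12 AP-1 and partner genes were nearest to at least 1 A549-only region, against 43.1% of all genes. An A549 JunB peak lay within 1 kb of a start at 10 of 12, and a B2B peak at 2 of 12, against 26.3% and 3.02% of all genes. The 12 genes had a median of 3 regions each, against 0 over all genes. JUN, the gene of c-Jun, was nearest to 5 A549-only, 4 shared and 1 B2B-only regions. FOSL1, which encodes the partner Fra-1, had 3 A549-only regions and no other, and the strongest, at chr11:65899136-65899669, had a fold enrichment of 22.4. FOSL2, which encodes Fra-2, had 9 A549-only, 2 shared and 2 B2B-only regions and a JunB peak at a start in both lines. JUNB itself had 2 A549-only regions, with a highest fold enrichment of 5.22.

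All 10 MAPK feedback genes, whose products switch off growth factor signalling, were nearest to more A549-only than B2B-only regions. They had a median of 11 regions each. Over all genes this order held for 40.3%, and 50.2% had no region. DUSP5, a nuclear ERK phosphatase, had 15 A549-only, 3 shared and 0 B2B-only regions. ERRFI1, an inhibitor of EGFR, had 6 A549-only, 8 shared and 1 B2B-only regions. SPRED2 had a shared region inside the gene, 0.023 kb from one of its annotated transcript starts. It had the highest fold enrichment of that gene in both lists, 21.7 in A549 and 17.7 in B2B. All 13 NRF2 target genes, which serve antioxidant defence, were nearest to at least 1 A549-only region, against 43.1% of all genes. They were also nearest to more of these than of B2B-only regions. A JunB peak lay at a start of 12 of 13 in A549 and of 1 of 13, SLC7A11, in B2B, against 26.3% and 3.02% of all genes. GCLM, a subunit of the enzyme that makes the glutathione precursor, had its single region, A549-only, 0.051 kb from its start with a fold enrichment of 18.1. ABCC2, an exporter of glutathione conjugates, had 9 A549-only regions and 1 shared region.

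Among 13 epithelial junction and simple keratin genes, 12 had more A549-only than B2B-only regions, against 40.3% of all genes, of which 50.2% had no region. KRT8 had 9 A549-only and 2 shared regions, and EPCAM had 9 A549-only regions and 1 shared region. CDH1, the E-cadherin gene, had 4 A549-only regions and 1 B2B-only region 0.369 kb from a start. It was among the 4 of 13 genes of the list with a B2B JunB peak at a start, against 3.02% of all genes. Of 11 regulators of lung and endoderm, 10 had more A549-only than B2B-only regions. A B2B JunB peak at a start was found at 0 of the 11. This does not set the list apart, since only 3.02% of all genes had one. FOXA2 had 19 A549-only, 3 shared and 1 B2B-only regions, and NKX2-1 had none in either line. All 11 of these genes had an H3K4me3 promoter peak in A549, and 5 had one in B2B. Of 12 surfactant and secretory genes, 8 were nearest to no JunB region, against 50.2% of all genes.

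Of 13 mesenchymal genes, 7 had more A549-only than B2B-only regions (53.8%), and the list held 51 A549-only, 19 shared and 19 B2B-only regions. The reverse held for 3 of 13 (23.1%), the largest such share among the 13 lists, against 4.23% of all genes. No region was assigned to 15.4% of this list and to 50.2% of all genes. CDH2, the N-cadherin gene, had 1 A549-only, 2 shared and 5 B2B-only regions. THBS1, a matrix protein, had 5 A549-only, 5 shared and 6 B2B-only regions. SNAI2 had a single region, B2B-only, 1.85 kb from a start, and ZEB2 in contrast had 18 A549-only, 1 shared and 2 B2B-only regions. VIM had a shared region 0.008 kb from its start with a fold enrichment of 53.4 in A549. The highest fold enrichment of VIM in B2B was 4.755, at a B2B-only region 11.8 kb from a start.

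All 10 YAP-TEAD target genes were nearest to a shared region, against 15.7% of all genes. All 10 had an A549 JunB peak at a start, 4 of them also in B2B, against 26.3% and 3.02% of all genes. ANKRD1 had 0 A549-only, 2 shared and 3 B2B-only regions, and its start carried a shared region with a fold enrichment of 20.7 in A549 and 17.7 in B2B. F3, the tissue factor gene, had 1 A549-only, 2 shared and 1 B2B-only regions. Of 11 growth factor receptor and ligand genes, 10 had more A549-only than B2B-only regions, against 40.3% of all genes, of which 50.2% had no region. MET had an A549-only region 0.095 kb from its start with a fold enrichment of 36.6, and in all 6 A549-only, 3 shared and 1 B2B-only regions.

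Of 12 basal airway genes, 8 had more A549-only than B2B-only regions, against 40.3% of all genes, of which 50.2% had no region. The strongest JunB region of the list lay at an annotated start of S100A2. It was shared, with a fold enrichment of 58.2 in A549 and 5.75 in B2B. Of 13 cytokine genes, 8 had more A549-only and 2 more B2B-only regions, against 40.3% and 4.23% of all genes. None had a B2B JunB peak at a start, which does not set the list apart, since only 3.02% of all genes had one. CXCL8 had an A549-only region 0.031 kb from its start and 3 shared regions. Of 10 protease and urokinase genes, 7 had more A549-only regions, against 40.3% of all genes. PLAU, the urokinase gene, had a shared region 2.31 kb from its start with a fold enrichment of 12.9 in A549 and 15.8 in B2B. Of 12 ribosomal protein genes, which every cell uses, 7 had an A549 JunB peak at a start and 1, RPL3, also in B2B. All 12 carried H3K4me3 in both lines, and among all genes that did so the shares were 39.6% in A549 and 4.29% in B2B.

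**Figure D5:**
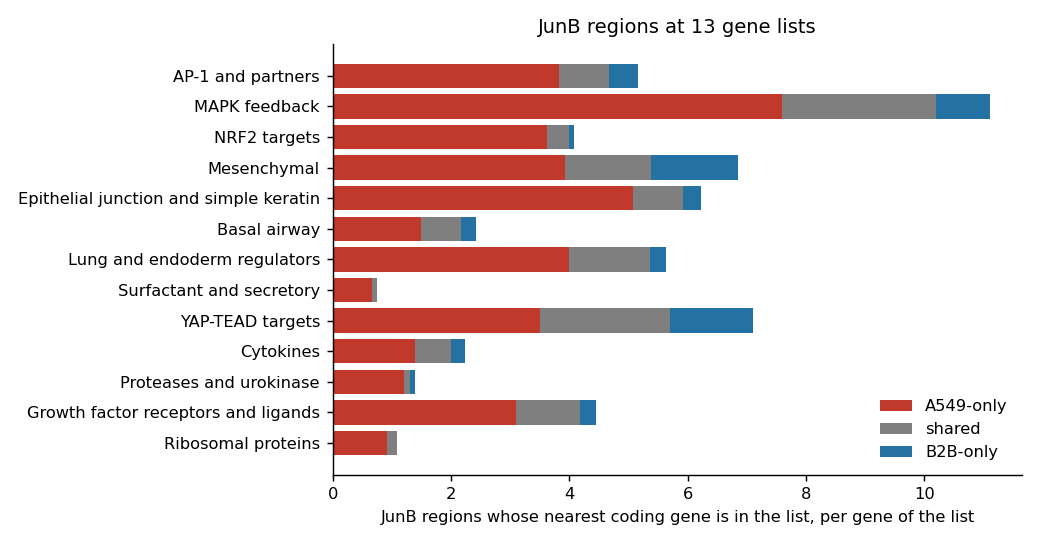
Number of JunB regions divided by the number of genes in the list (horizontal axis) for the 13 gene lists (vertical axis), where each region counts for the protein-coding gene with the nearest start and colours mark A549-only, shared and B2B-only regions. The MAPK feedback list has the longest bar, with 76 A549-only, 26 shared and 9 B2B-only regions over 10 genes, and the mesenchymal list has the most B2B-only regions, 19, beside 51 A549-only regions.

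The genes with the most regions of a class differed in how many of those regions held the motif. KLF6, a stress-induced zinc finger factor, had 21 A549-only, 10 shared and 1 B2B-only regions, and 7 of the 10 shared regions held the AP-1 motif. SMAD3, a mediator of TGF-beta signalling, had 13, 10 and 1, and all 10 shared regions overlapped Jun in both lines. MYC had 42 A549-only, 14 shared and 2 B2B-only regions, and 11 of the 14 shared and 19 of the 42 A549-only regions held the motif. PDE4D, a cAMP phosphodiesterase, had 3 shared and 46 A549-only regions, and 24 of the 46, which spanned 1473 kb, held the motif.

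Other gene neighbourhoods were crowded with regions that held few motifs. TPTE was nearest to 116 A549-only regions, of which 11 held the AP-1 motif and 71 overlapped A549 Jun, and their median distance was 2128 kb. ATP6V0D2 was nearest to 94 A549-only regions over 277 kb, of which 1 held the motif and 2 overlapped Jun. Of the 42 A549-only regions of PLS3 and the 40 of RHOU, 2 and 2 held the motif, 8 and 7 overlapped Jun, and 36 and 37 overlapped H3K4me3. DEFB115 and ZNF337 had 55 and 41 A549-only regions, with 3 and 2 motifs. Shared regions nearest to H3-7 and ZNF33B, 14 and 11 of them, held 0 motifs each.

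B2B-only regions were fewer than A549-only regions, 3164 against 21142, and the largest counts at a gene were smaller too. With lists of equal length, B2B-only regions were nearest to 3040 genes and A549-only regions to 3429. SULF2, an enzyme that trims heparan sulphate, had 13 B2B-only, 2 A549-only and 2 shared regions, and of the 13, 4 held the AP-1 motif, 12 overlapped B2B Jun and 0 overlapped A549 Jun. TNC, the gene of the matrix protein tenascin-C, had 9 B2B-only, 5 shared and 2 A549-only regions, all 9 of them with B2B Jun. ARHGAP26 had 10 B2B-only, 6 shared and 4 A549-only regions. FRMD4A had 9 B2B-only regions, all with B2B Jun and 3 also with A549 Jun. The 1-Mb bin with the most B2B-only regions, 16, with 4 A549-only and 4 shared, was chr20:48000001-49000000 beside SULF2 and PREX1. The next, chr9:115000001-116000000 with TNC and PAPPA, held 11 B2B-only, 8 shared and 6 A549-only regions. The bin chr10:3000001-4000000 at KLF6 held the most shared regions, 15, with 28 A549-only and 2 B2B-only.

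Of the 5 strongest A549-only regions, 4 lay within 1 kb of a start site and all 5 overlapped Jun and JunD in A549. The strongest, chr20:54067511-54068119, lay 2.69 kb from BCAS1 with a fold enrichment of 54.1, rank 21 in the A549 list, and held no AP-1 motif within 50 bp of its summit. The second, chr10:113093462-113094121, lay in an intron of TCF7L2, a Wnt effector, 31.9 kb from a gene start with a fold enrichment of 49.3, and it overlapped all 6 other A549 targets and, in B2B, Jun alone. The strongest region of both lists, chr3:144798913-144799747, between genes, had fold enrichments of 89.9 and 100.2 and held no AP-1 motif in a window made of alternating T and A, with the 2 summits 108 bp apart. The next shared region, chr11:36149526-36150240 in LDLRAD3, had fold enrichments of 55.4 and 30.9, with its summits 6 bp apart.

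Among the 5 strongest B2B-only regions, chr6:117167673-117168446 near VGLL2, overlapped all 8 other targets in B2B except H3K4me3, and none in A549. Another, chr15:39391253-39391592, lay 190 kb from THBS1 with a fold enrichment of 21.1, overlapped Jun, JunD, CTCF, Med1 and pol II in B2B, and held no AP-1 motif. All 5 overlapped B2B CTCF.

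The classes were spread unevenly over the chromosomes. B2B-only regions made up 10.8% of all regions, with the highest shares on chromosomes 13 (21.6%), 5 (19.5%) and 9 (19.3%) and the lowest on chromosome 19 (4.89%). Chromosome 5 held 8.07% of B2B JunB peaks (7.51 to 8.67%) and 5.44% of A549 JunB peaks (5.17 to 5.72%). Jun peaks differed in the same direction there, with 7.102% in B2B (6.87 to 7.34%) and 5.75% in A549 (5.51 to 5.99%). The intervals of H3K4me3 overlapped, at 5.16% in B2B (4.90 to 5.44%) and 4.94% in A549 (4.71 to 5.18%). Chromosome 13 held 2.75% of B2B (2.42 to 3.12%) and 1.64% of A549 JunB peaks (1.49 to 1.80%), and 2.92% and 1.90% of the Jun peaks. For H3K4me3 the intervals again overlapped, at 2.41% (2.23 to 2.61%) and 2.195% (2.04 to 2.36%). Of the A549-only regions, 42.9% had another A549-only summit within 10 kb. Of the B2B-only regions, 13.2% had another B2B-only summit, 10.6% a shared and 13.4% an A549-only summit within 10 kb.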

How the data were processed

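JunB ChIP-seq peak lists of A549 and B2B were analysed with the lists of the other targets of the series (36 samples in 18 groups of 2 replicates, of which 16 groups have a peak list). Per the study's methods and the submitters' processing notes, the authors aligned reads to hg38 with Bowtie2 2.4.4, removed duplicates, merged replicates, scaled them by CPM (SAMtools 1.13) and ran MACS2 2.2.7.1 to obtain peaks. Caller options and the control are not given in the sources used here. Column 7 of each list was deposited by the authors as fold enrichment, a ratio of pileup to local background, and columns 8 and 9 as −log10 of the p-value and of the q-value. No file gave counts, so that depth is unknown.

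Only chromosomes 1 to 22 with X and Y were used, bins of 1 Mb without a GENCODE 44 start site were set aside, and lists were merged at 1 bp. A region was placed by its JunB summit (that of A549 if shared). Pileups were solved as whole reads from fold enrichment and p-value (pseudocount 1), for at least 99.7% of each class. A mark was present at 1 bp overlap. Motifs were searched on both strands of hg38. Gene positions came from GENCODE and sequences from hg38. Python 3.11.15, NumPy 2.4.6, pandas 2.3.3, SciPy 1.17.1, pysam 0.24.0 and Matplotlib 3.10.9 were used, and the overlap code was run on simulated intervals, on which its counts equalled those of bedtools in 4 of 4 lists.

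Wilson and Newcombe 95% intervals cover counting error only. As each list pools its replicates, no test across samples was made. Named genes are members of 13 lists, the 8 genes nearest to the most regions and the genes nearest to the 5 strongest regions of each class, and the 3 bins with the most regions. Regions, members and lists were chosen with earlier results of these data known. Alternatives were a −log10 q of at least 5, lists of equal length, 50% reciprocal overlap, bins kept, other distances, windows of 500 bp and motif windows of 100 bp, regions beyond 1 kb and genes within 100 kb. The input samples were not analysed here. Some items are not reported here.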

Additional observations from a re-analysis of the deposited data

Results flagged for a closer look

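JunB peaks outside the regions compared were counted because they are a signal in data that no comparison uses. The input libraries were not analysed here. As a floor, a true level of up to 3 peaks is compatible with 0 observed, and all counts given here exceed it. JunB peaks on mitochondrial DNA numbered 12 in A549 and 11 in B2B. On unplaced or unlocalised sequences there were 430 in A549 and 23 in B2B.

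Bins of 1 Mb without a start site held 1851 JunB peaks in A549 (6.60% of its peaks), of which 1508 were on chromosome 1, and 200 in B2B (2.34%), of which 184 were on chromosome 1. None of the 1851 and none of the 200 held the AP-1 motif within 50 bp of the summit, against 49.5% and 54.9% of the peaks kept. Their median fold enrichment was 5.90 in A549 and 4.59 in B2B, against 6.89 and 6.59 for the peaks kept.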

How the results depend on the processing

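Of 57 alternative values over 11 results, 17 stayed within the tolerance used, 39 moved further and 1 changed sign. The tolerance was the counting interval of the value, and for the ratio of genes, which has none, a set factor, within which it ranged from 3.194 to 4.613 in 4 alternatives. With JunB lists of equal length the shared part of the regions was 23.6%, A549-only exceeded B2B-only near start sites by 14.05 points, and the ratio of genes was 1.128. A549-only minus shared was then -0.3702 points for Jun, 1.087 for H3K27ac and -11.67 for the AP-1 motif, B2B-only minus shared was -9.498, -17.78 and -29.37 points, and Jun of the other line lay at 58.51% of A549-only and 40.86% of B2B-only regions. With 50% reciprocal overlap the shared part was 12.98% and the near-start difference 19.15 points. Shared regions of this setting were the A549 peaks with their A549 summits, also where B2B-only regions were compared with them. A549-only minus shared was -10.21 points for Jun, 19.26 for H3K27ac and -19.86 for the motif. B2B-only minus shared was -0.7801, -1.737 and -19.55 points, and Jun of the other line lay at 41.71% and 42.01%. With JunB peaks of −log10 q of at least 5, the shared part was 17.91% and the near-start difference 20.12 points. Jun differed by -10.54 points in A549 and -3.164 in B2B, H3K27ac in A549 by 8.848 and the motif in A549 by -20.13, and Jun of the other line lay at 41.15% and 23.71%. With the bins without a start site kept, the shared part was 16.6%, the near-start difference 20.09 points, Jun in A549 -16.88, H3K27ac in A549 8.189, the motif in A549 -24.37 and B2B Jun at A549-only regions 36.0%. With starts of protein-coding genes only, the near-start difference was 20.44 points. Beyond 1 kb from a start site, H3K27ac changed sign in A549 to -4.104 points and was -8.758 in B2B, and the motif in A549 was -12.15. With windows of 500 bp, H3K27ac in B2B was -8.12 points. With lists of equal length, B2B-only regions include sites whose A549 JunB peak was cut. With 50% reciprocal overlap, regions of 1 line only include sites that overlap a JunB peak of the other line by less. The shorter list and the smaller set of regions are part of these alternatives, and other causes were not tested.

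No paired analysis was possible because the authors merged the replicates into 1 list for each line and target, and for the same reason leaving out a replicate could not be run. Read depth is unknown, so a JunB region missing from a list was not called at its depth, which does not show that JunB was absent.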
